A study of Mus musculus with 9 samples.

Results

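Prostaglandins are made from arachidonic acid, and 10 genes of this pathway were followed in osteocyte-like cells that shared medium with cartilage cells. The genes were chosen by name, as those for arachidonate release (Pla2g4a), the cyclooxygenases (Ptgs1, Ptgs2), the prostaglandin E2 (PGE2) synthases (Ptges, Ptges2, Ptges3), prostacyclin synthesis (Ptgis), breakdown (Hpgd) and the PGE2 receptors EP1 and EP4 (Ptger1, Ptger4). All 10 were found among the 56748 genes of the count table. RNA sequencing was done on MLO-Y4 cells, a clonal mouse line with osteocyte features that was obtained from a mouse carrying the SV40 large T antigen under an osteocalcin promoter. The cells were grown on collagen I and co-cultured with primary articular chondrocytes of C57BL/6J mice aged 5 to 6 days, which sat on a porous transwell insert, which let soluble factors pass while keeping the cell types apart. In the control group (n = 3) the chondrocytes were not stimulated. In the other groups they had received 10 ng/mL interleukin-1β (IL-1β) for 6 h, and the co-culture then lasted 24 h (n = 3) or 48 h (n = 3). The labels name no gene deletion in these groups. The labels give the control group no culture time, so a difference from control cannot be told apart from a difference in time in culture. They also call the line MLO-Y5, MLO-Y6 and MLO-Y7 in the 48 h samples, whereas the protocols name MLO-Y4 for all. Nothing says that the samples of a group came from separate cultures, so the p-values measure the spread between these samples, which may be technical.

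In this pathway a cytosolic phospholipase A2 frees arachidonic acid from membranes, a cyclooxygenase turns it into prostaglandin H2, and terminal synthases convert that into PGE2, prostacyclin and other prostanoids, which leave the cell and act on G protein-coupled receptors. Cyclooxygenase 1 is present in most cells, whereas cyclooxygenase 2 and the microsomal PGE synthase 1 are the forms that cytokines and mechanical load induce. In bone, osteocytes release PGE2 when they are loaded, and EP4 carries much of its anabolic signal to bone-forming cells.

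The upstream sequences of the genes for the inducible pair, Ptgs2 and Ptges, and of the gene for the constitutive cyclooxygenase, Ptgs1, are shown because the first 2 rose at 24 h and the last was not called there. Each is the stretch of 250 bases before the start site in RefSeq (GRCm38.p6), read 5′ to 3′ on the strand of the gene and placed on GRCm39 by its single exact match. Capitals mark motif matches on either strand.
Ptgs2: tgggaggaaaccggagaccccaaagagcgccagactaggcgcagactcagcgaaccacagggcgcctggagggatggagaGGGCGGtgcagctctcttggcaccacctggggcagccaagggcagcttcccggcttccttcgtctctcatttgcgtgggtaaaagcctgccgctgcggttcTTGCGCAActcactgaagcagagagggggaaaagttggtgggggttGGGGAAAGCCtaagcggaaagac
Ptges: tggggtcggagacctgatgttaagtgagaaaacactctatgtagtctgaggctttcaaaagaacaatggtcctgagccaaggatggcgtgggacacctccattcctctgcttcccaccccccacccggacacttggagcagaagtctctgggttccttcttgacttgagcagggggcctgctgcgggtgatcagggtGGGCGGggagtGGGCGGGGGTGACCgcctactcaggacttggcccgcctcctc
Ptgs1: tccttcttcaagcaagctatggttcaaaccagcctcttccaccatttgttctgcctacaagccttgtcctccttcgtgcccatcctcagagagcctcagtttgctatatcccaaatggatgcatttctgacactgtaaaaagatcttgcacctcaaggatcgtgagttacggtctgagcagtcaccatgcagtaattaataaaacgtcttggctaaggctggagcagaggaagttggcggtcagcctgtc
The Ptgs2 stretch lies at chr1:149975532-149975781 on the plus strand and ends at the 5′ end of the gene in the count table. The Ptges stretch lies at chr2:30793310-30793559 on the minus strand, and its start site is 26566 bases inside the longer gene model of the count table. The Ptgs1 stretch lies at chr2:36120188-36120437 on the plus strand and ends at the 5′ end of the gene. A window of 300 bases, from 250 before to 50 after the start, was searched on both strands for 7 motifs. They were the CRE core TGACG, the E-box CACGTG, a C/EBP palindrome TTNCGNAA, a kappaB site of 3 G, any 5 bases and 2 C, an AP-1 site TGANTCA, the TATA box TATAAA and the Sp1 site GGGCGG. Counted from the start site, the Ptgs2 window held an Sp1 match at -170 to -165, a C/EBP match at -69 to -62, a kappaB match at -23 to -14, and, beyond the printed stretch, a CRE core on the minus strand at 14 to 18 that overlaps an E-box at 17 to 22. The Ptges window held Sp1 matches at -53 to -48 and at -42 to -37, the latter overlapping a kappaB match at -38 to -29. The Ptgs1 window held a single match, a kappaB site at 28 to 37, outside the printed stretch. Of the 32851 promoters in the table, 50.8% held the kappaB letters, 35.7% Sp1, 20.8% the CRE core, 7.15% the E-box and 2.47% the C/EBP palindrome. The AP-1 letters were in 7.81% and the TATA box in 13.6% of the promoters, and neither was found in the windows of these 3 genes. Of the genes not printed, Ptges3 and Ptger4, also not called at 24 h, held both kappaB and Sp1 matches. Ptges3 held a CRE core as well. Hpgd held Sp1 without kappaB, and Pla2g4a and Ptges2 held neither. Ptges2, also not called at 24 h, held an E-box at -77 to -72. The TATA box was matched in Hpgd and in a window of Pla2g4a. The matches describe the letters only. RefSeq entries were found for 8 of the 10 genes, with none for Ptgis and Ptger1.

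Total counts were between 12250628 and 18515456 per library, and 1 count corresponded to between 0.0533 and 0.0817 CPM, which is the counts-per-million unit of the levels that follow, taken after scaling of the libraries. Of the genes, 13812 passed the filter on low counts and were tested. The osteocyte label was checked with 8 markers. Mepe and Fgf23 were at 0 in all libraries, Sost was at 0 in all but 1 library with 1 count, and Dmp1 had at most 6 counts. These markers of mature osteocytes were thus nearly absent. Mean levels in control were 1496 CPM for Gja1, 212 CPM for Pdpn, 14.6 CPM for Phex and 5.52 CPM for Bglap. Of these 4, tested at 48 h versus control, 3 were called higher, beside 22.0% of all genes tested. Bglap was called lower (log2 fold change -0.59, edgeR adjusted p = 0.0336), beside 24.4%. The summed level of the list was 1639 to 1796 CPM in control, 1889 to 1919 CPM at 24 h and 2649 to 2689 CPM at 48 h, most of it Gja1. Of the 12 chondrocyte markers, Col9a1, Col9a2, Matn1, Acan and Cnmd were at 0 in every library, and Col2a1 had at most 7 counts. Their summed level, nearly all Sox9, was 112 to 124 CPM in control, 104 to 112 CPM at 24 h and 124 to 130 CPM at 48 h. Of the 4 tested, Comp (1 to 21 counts per library) and Sox9 were called higher at 48 h versus control, and Matn3 lower. The log2 fold changes were 1.45, 0.14 and -1.25. Of all genes tested, 22.0% were called higher and 24.4% lower there. Of the 6 macrophage markers Adgre1 was at 0 throughout, and the summed level was 18.6 to 20.4, 24.1 to 26.3 and 20.8 to 24.2 CPM in the 3 groups, most of it Cd14. At 24 h versus control Cd14 was called higher (log2 fold change 0.62) and Csf1r lower (-0.84). The part of these lists in the results was not tested.

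At 24 h the genes for the inducible enzymes, Ptgs2 and Ptges, were higher than in control. At 48 h Ptgs2 was below control, and Ptges was not called against control, with libraries that overlapped the control range. Ptgs1 and Ptges3 were lower only in the comparisons with the 48 h group, the EP1 receptor gene Ptger1 was higher at 48 h, and Pla2g4a stayed between 56.6 and 62.9 CPM in all 9 libraries. Of the 10 genes, 8 passed the filter, each with at least 15 counts in every library, and Ptgis and Hpgd did not. A gene was called where its adjusted p in the edgeR quasi-likelihood test, over all genes tested, was under 0.05. For 24 h versus control 2 of the 8 were called higher and 0 lower, beside 6.15% of all genes tested that were called (3.25% higher and 2.90% lower). For 48 h versus control 1 was called higher and 5 lower, beside 46.4% of all genes (22.0% higher and 24.4% lower). For 48 h versus 24 h 0 were called higher and 6 lower, beside 49.1% of all genes (23.7% higher and 25.4% lower). The median log2 fold change of the 8 genes was 0.05, -0.23 and -0.31 in these comparisons, and that of all genes tested was -0.0042, -0.0022 and -0.0017. With nearly every second gene called in the comparisons with 48 h, a call there sets a gene little apart from the rest. Libraries of the compared groups did not overlap for 3, 5 and 6 of the 8 genes, beside 21.5%, 53.1% and 59.4% of all genes tested. The comparisons at 24 h and 48 h with control share the 3 control libraries and are given side by side.

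**Figure D1:**
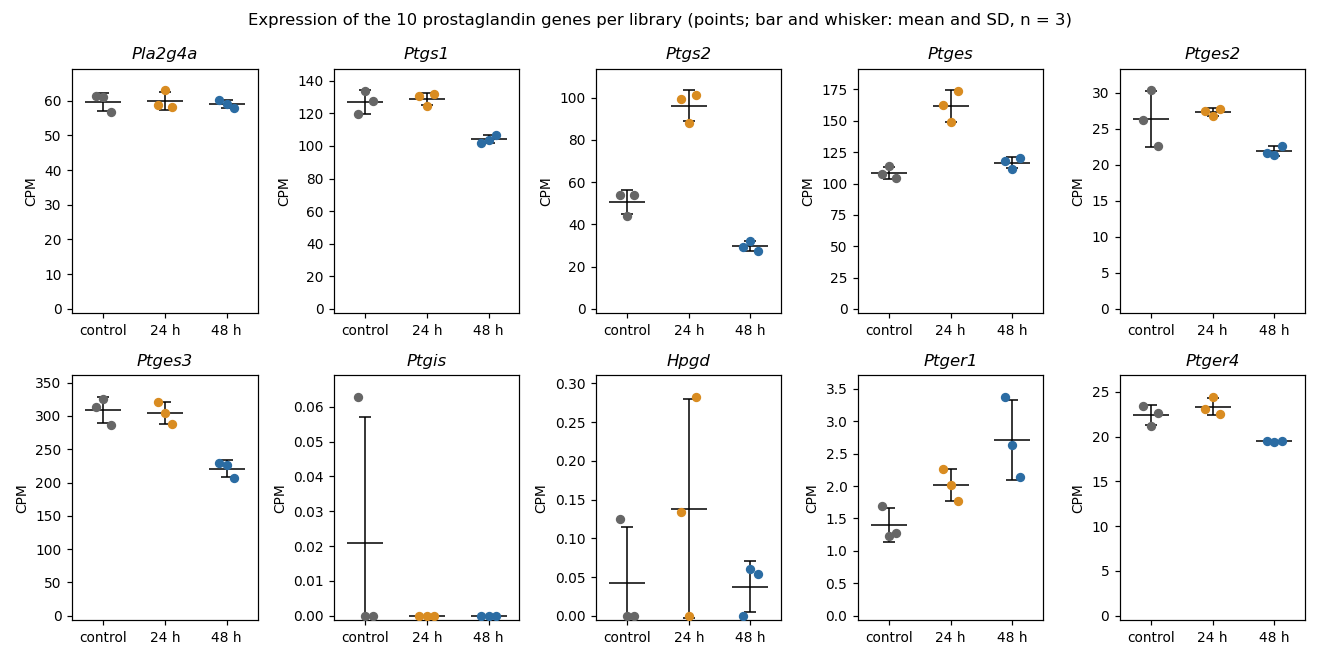
Level of each of the 10 prostaglandin genes in CPM (vertical axis, starting at 0, with its own scale for each gene) in the control, 24 h and 48 h groups. Points are libraries, and the bar and whiskers are the mean and SD of 3 libraries. Ptgs2 and Ptges are highest at 24 h, Ptgs2 is lowest at 48 h, Ptgs1 and Ptges3 are lower at 48 h, and Ptgis and Hpgd rest on at most 4 counts per library.

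Pla2g4a (ENSMUSG00000056220, chr1:149705369-149837041, minus strand, GRCm39) encodes cytosolic phospholipase A2α, which frees arachidonic acid. Its level was 61.2, 60.9 and 56.6 CPM in the control libraries, 58.6, 62.9 and 58.1 CPM at 24 h and 60.1, 58.9 and 58.0 CPM at 48 h. The groups overlapped throughout. The log2 fold change was 0.01 at 24 h (edgeR adjusted p = 0.967) and -0.01 at 48 h (edgeR adjusted p = 0.864) against control, with 95% intervals of -0.12 to 0.13 and -0.14 to 0.11. The gene lies on the same chromosome as Ptgs2, on the opposite strand.

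Ptgs2 (ENSMUSG00000032487, chr1:149975782-149983978, plus strand) encodes cyclooxygenase 2, and its start is that of the sequence shown above. Its level was 53.9, 44.2 and 53.9 CPM in control, 99.5, 87.8 and 101.2 CPM at 24 h and 29.4, 32.0 and 27.3 CPM at 48 h. All 24 h libraries were above, and all 48 h libraries below, every control library. After 24 h the level was 1.89 times that of control, and the log2 fold change was 0.92 (SE 0.08, edgeR adjusted p = 4.86e-07). At 48 h it was 0.582 of the control level, with a log2 fold change of -0.78 (SE 0.09, edgeR adjusted p = 6.73e-07). Between 24 h and 48 h it fell by 1.70 on the log2 scale (SE 0.08, edgeR adjusted p = 1.26e-11), the change of the greatest size among the 8 genes tested. In these bulk samples, fewer cells of a kind and less RNA per cell cannot be told apart.

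Ptgs1 (ENSMUSG00000047250, chr2:36120438-36142284, plus strand) encodes cyclooxygenase 1. The control libraries held 119.3, 133.7 and 127.6 CPM, those at 24 h 130.5, 124.3 and 131.6 CPM, and those at 48 h 102.1, 103.9 and 107.0 CPM. Control and 24 h overlapped, and each 48 h library was below all others. The log2 fold change was 0.02 at 24 h (edgeR adjusted p = 0.884) and -0.28 at 48 h (SE 0.06, edgeR adjusted p = 0.000414), and from 24 h to 48 h it was -0.30 (edgeR adjusted p = 0.000166). The balance of the cyclooxygenase transcripts therefore moved mainly with Ptgs2. The ratio of Ptgs2 to Ptgs1, both as CPM per kilobase of gene length, was 0.341 ± 0.054 in control, 0.633 ± 0.029 at 24 h and 0.241 ± 0.023 at 48 h (SD, n = 3). Single libraries gave 0.280 to 0.383 in control, 0.600 to 0.652 after 24 h and 0.216 to 0.261 after 48 h, without overlap. Per length, Ptgs1 was above Ptgs2 in all 9 libraries.

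Ptges (ENSMUSG00000050737, chr2:30779483-30819875, minus strand) encodes microsomal PGE synthase 1, the inducible partner of cyclooxygenase 2. Its level was 107.9, 113.9 and 104.1 CPM in control, 162.7, 148.9 and 173.8 CPM at 24 h and 118.0, 111.9 and 120.3 CPM at 48 h. Each 24 h library was above all others, while control and 48 h overlapped. After 24 h it was 1.49 times the control level, and the log2 fold change was 0.58 (SE 0.06, edgeR adjusted p = 5.81e-06). At 48 h the log2 fold change over control was 0.10 (95% interval -0.03 to 0.23, edgeR adjusted p = 0.179). From 24 h to 48 h the level fell by 0.47 on the log2 scale (SE 0.06, edgeR adjusted p = 3.86e-06). Ptges and Ptgs2 thus both rose at 24 h, and of the pair Ptgs2 alone was called below control at 48 h.

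The other PGE synthases are regarded as constitutive. Ptges3 (ENSMUSG00000071072, chr10:127894823-127913141, plus strand) encodes the cytosolic PGE synthase, also known as the Hsp90 co-chaperone p23. Its level was 312.9, 325.4 and 287.1 CPM in control, 321.0, 305.0 and 287.6 CPM at 24 h and 229.9, 226.7 and 206.2 CPM at 48 h. Control and 24 h overlapped, and the 48 h libraries were below both. The log2 fold change over control was -0.02 at 24 h (edgeR adjusted p = 0.914) and -0.48 at 48 h (SE 0.06, edgeR adjusted p = 2.17e-06), and 48 h versus 24 h gave -0.46 (edgeR adjusted p = 2.95e-06). A processed pseudogene, Ptges3-ps, held 929 to 1472 counts per library. Reads may be split between it and Ptges3, but how alike their sequences are was not measured. Ptges3-ps had log2 fold changes of 0.06, -0.53 and -0.59 in the same 3 comparisons. With the counts of both summed, a setting chosen after the data were seen, Ptges3 gave -0.49 at 48 h versus control (edgeR adjusted p = 4.16e-07).

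Ptges2 (ENSMUSG00000026820, chr2:32285908-32295784, plus strand), for microsomal PGE synthase 2, had 26.2, 30.3 and 22.5 CPM in control, 27.4, 26.7 and 27.8 CPM at 24 h and 21.7, 21.4 and 22.6 CPM at 48 h. Its control libraries were spread more widely than the others, and the lowest of them was inside the 48 h range. The log2 fold change was 0.05 at 24 h (edgeR adjusted p = 0.825) and -0.26 at 48 h (SE 0.09, edgeR adjusted p = 0.0247) over control. From 24 h to 48 h the level fell by 0.32 on the log2 scale (edgeR adjusted p = 0.00725), without overlap. The call at 48 h versus control was lost when control replicate 2 was left out, at a log2 fold change of -0.15 (edgeR adjusted p = 0.177), and also without control replicate 1, 48 h replicate 1 or 48 h replicate 2 (edgeR adjusted p = 0.0682, 0.0617 and 0.0736).

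**Figure D2:**
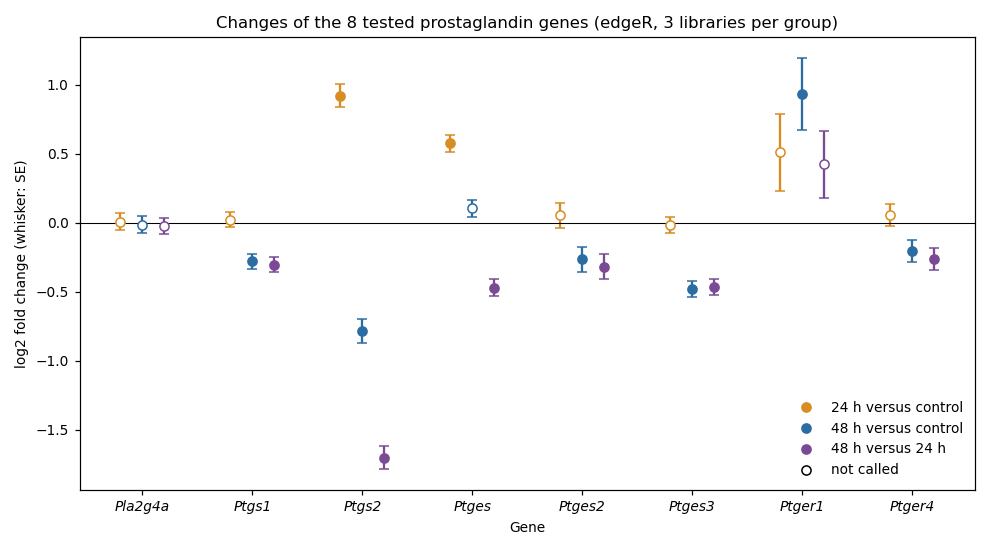
Log2 fold change (vertical axis) of the 8 tested prostaglandin genes (horizontal axis) for 24 h versus control, 48 h versus control and 48 h versus 24 h, with the SE as whiskers. Filled points are called at an edgeR adjusted p under 0.05 and open points are not. The changes of Ptgs2 run from 0.92 to -1.70, Pla2g4a lies at 0 within its SE, and Ptger1 is the only gene above 0 with a filled point at 48 h versus control.

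Prostacyclin synthase and the main prostaglandin-degrading enzyme were close to undetected. Ptgis (ENSMUSG00000017969, chr2:167033725-167082524, minus strand) had 1 count in control replicate 1 and 0 counts in the 8 other libraries. Hpgd (ENSMUSG00000031613, chr8:56747620-56774078, plus strand), for 15-hydroxyprostaglandin dehydrogenase, had 2, 0 and 0 counts in control, 2, 0 and 4 at 24 h and 0, 1 and 1 at 48 h. A count of 0 allows up to 3 counts, which is 0.160 to 0.245 CPM depending on the library, for counting error only. No difference between groups was detectable for either gene at this depth, and no fold change is given.

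Ptger4 (ENSMUSG00000039942, chr15:5236142-5273668, minus strand) encodes EP4, the PGE2 receptor that raises cyclic AMP (cAMP). Its level was 23.5, 21.2 and 22.6 CPM in control, 23.1, 24.4 and 22.6 CPM at 24 h and 19.5, 19.4 and 19.5 CPM at 48 h. The 48 h libraries lay close together and below all others. The log2 fold change was 0.06 at 24 h (edgeR adjusted p = 0.775) and -0.20 at 48 h (SE 0.08, edgeR adjusted p = 0.0414) over control, and -0.26 for 48 h versus 24 h (SE 0.08, edgeR adjusted p = 0.00984). The call at 48 h versus control was lost under most other settings, with DESeq2 (adjusted p = 0.123) and without any single library other than control replicate 2, at edgeR adjusted p-values up to 0.181. The call for 48 h versus 24 h was lost without 24 h replicate 2 (log2 fold change -0.22, edgeR adjusted p = 0.0540). The gene overlaps Ttc33 on the opposite strand, which was called in none of the 3 comparisons and had log2 fold changes of -0.08, 0.06 and 0.14. The libraries were directional, but whether counting used the strand is not stated.

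Ptger1 (ENSMUSG00000019464, chr8:84393307-84399382, plus strand) encodes EP1, the PGE2 receptor coupled to calcium. It was the least expressed of the tested genes, at 1.69, 1.23 and 1.28 CPM in control, 2.27, 2.02 and 1.76 CPM at 24 h and 3.37, 2.63 and 2.13 CPM at 48 h. These levels rest on 15 to 59 counts per library. Every library of the 24 h and 48 h groups was above every control library, and 24 h and 48 h overlapped. The log2 fold change was 0.51 at 24 h (SE 0.28, edgeR adjusted p = 0.348) and 0.93 at 48 h (SE 0.26, edgeR adjusted p = 0.00703) over control, and 0.42 for 48 h versus 24 h (edgeR adjusted p = 0.166). The uncertainty of counts where the use of strand is not stated applies to this low level as well.

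Levels of different genes were compared per kilobase of the gene length in the table. In control the enzymes followed the order Ptges3 (139 CPM per kilobase), Ptgs1 (32.7 ± 1.9), Ptges (27.6 ± 1.3), Ptgs2 (11.1 ± 1.2), Pla2g4a (9.32 ± 0.41) and Ptges2 (5.21 ± 0.77), with the SD of 3 libraries. Neighbouring means in this order differed by more than the SD of either. At 24 h Ptges, at 41.2 ± 3.2 CPM per kilobase, was above Ptgs1, at 33.2 ± 1.0. At 48 h Ptgs2, at 6.46 ± 0.52, was below Pla2g4a, at 9.23 ± 0.17. Among prostanoid receptors, Ptgfr had the highest level in control with 23.9 CPM per kilobase, followed by Ptger3 with 3.88 ± 0.16, Ptger4 with 3.37 ± 0.18, Ptgir with 3.03 ± 0.19 and Ptger1 with 0.256 ± 0.047. At 24 h the levels of Ptger3, Ptger4 and Ptgir were 3.88 ± 0.35, 3.51 ± 0.14 and 4.10 ± 0.85, and the mean of Ptgir differed from those of the other two by less than its own SD. Ptger2, for EP2, the other PGE2 receptor that raises cAMP, had at most 1 count per library, so EP4 was the one of that pair with a measurable transcript.

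**Figure D3:**
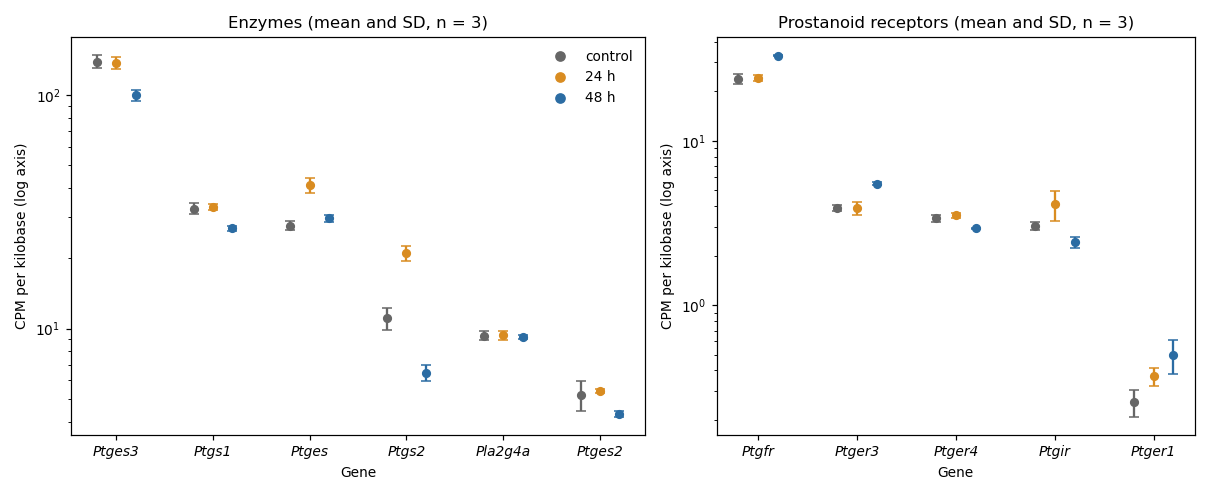
Mean level of the prostaglandin enzymes (left) and prostanoid receptors (right) in CPM per kilobase of gene length on a log axis, for the control, 24 h and 48 h groups, with the SD of 3 libraries as whiskers. Ptges is above Ptgs1 at 24 h and 48 h but not in control, Ptgs2 is above Pla2g4a in control and at 24 h but not at 48 h, and Ptger1 is the lowest receptor shown in each group.

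The rest of the pathway was described with a list of 43 other genes, of which 42 were found by name and 22 were tested. For 24 h versus control 3 were called higher and 0 lower (median log2 fold change 0.0054), for 48 h versus control 3 higher and 7 lower (median -0.09), and for 48 h versus 24 h 4 higher and 8 lower (median -0.05). The called shares were 13.6%, 45.5% and 54.5%, beside the 6.15%, 46.4% and 49.1% of all genes. Upstream of the cyclooxygenases, Acsl4, the acyl-CoA synthetase that prefers arachidonic acid, had 156.5, 127.3 and 160.2 CPM in control, 195.5, 194.3 and 195.4 CPM at 24 h and 239.3, 244.0 and 244.5 CPM at 48 h. The groups did not overlap, and its log2 fold change was 0.40 at 24 h (SE 0.07, edgeR adjusted p = 0.00068) and 0.71 at 48 h (SE 0.07, edgeR adjusted p = 7.04e-08). Lpcat3, an acyltransferase that returns arachidonate to phospholipids, rose at 24 h by a log2 fold change of 0.22 (edgeR adjusted p = 0.0199). It had -0.02 at 48 h versus control (edgeR adjusted p = 0.826) and -0.24 for 48 h versus 24 h (edgeR adjusted p = 0.00137). Mboat7, which returns arachidonate to phosphatidylinositol, fell by 0.22 on the log2 scale at 48 h (edgeR adjusted p = 0.00298). Of the 6 other phospholipase-related genes tested, Plaa, for phospholipase A2-activating protein, was the 1 called at 48 h versus control, at -0.40 (edgeR adjusted p = 1.12e-05). Pla2g15, a lysosomal phospholipase A2, was called for 48 h versus 24 h alone, at 0.20 (edgeR adjusted p = 0.041).

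Among the synthases of other prostanoids, Akr1b3, an aldo-keto reductase with prostaglandin F synthase activity, held 138.3, 149.1 and 137.2 CPM in control, 144.1, 144.2 and 147.2 CPM at 24 h and 86.9, 83.9 and 78.2 CPM at 48 h. It fell by 0.77 on the log2 scale at 48 h versus control (SE 0.06, edgeR adjusted p = 3.16e-09). The lipocalin-type prostaglandin D synthase gene Ptgds was at 0 in all libraries, and Hpgds, for the hematopoietic form, had at most 4 counts.

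Of the 4 tested genes of prostaglandin transport and inactivation, 3 were called lower at 48 h than in control, beside 24.4% of all genes tested. Slco2a1, the prostaglandin uptake transporter, had 117.8, 126.4 and 127.2 CPM in control, 138.7, 141.4 and 143.4 CPM at 24 h and 80.6, 78.1 and 80.5 CPM at 48 h. It rose at 24 h (log2 fold change 0.19, SE 0.05, edgeR adjusted p = 0.0349) and was below control at 48 h (-0.63, SE 0.05, edgeR adjusted p = 1.8e-08), with no overlap between any of the groups. Abcc4, an efflux pump that exports PGE2, differed from control by 0.20 on the log2 scale at 24 h (edgeR adjusted p = 0.0779) and -0.37 at 48 h (SE 0.07, edgeR adjusted p = 0.000144). Ptgr1, a reductase that acts on 15-keto prostaglandins after Hpgd, had 176.5, 183.8 and 176.1 CPM in control, 164.3, 186.0 and 166.7 CPM at 24 h and 92.8, 88.2 and 81.3 CPM at 48 h. It fell by 1.03 on the log2 scale at 48 h versus control (SE 0.06, edgeR adjusted p = 2.21e-10). Ptgs2, Ptges, Slco2a1 and Lpcat3 were thus each called higher at 24 h than in control and lower at 48 h than at 24 h. Of these, Ptgs2 and Slco2a1 were also called below control at 48 h, and Ptges and Lpcat3 were not. Ptgr1 and Akr1b3 were called only in the comparisons with 48 h.

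The receptor genes did not move together. Ptger3, for EP3, the PGE2 receptor that lowers cAMP, had 21.9, 21.2 and 23.1 CPM in control, 20.8, 24.4 and 21.1 CPM at 24 h and 30.6, 31.8 and 31.0 CPM at 48 h. It rose at 48 h (log2 fold change 0.49, SE 0.08, edgeR adjusted p = 5.28e-05) and was not called at 24 h (0.00070, edgeR adjusted p = 0.998). Ptgfr, the prostaglandin F receptor gene, rose at 48 h from 148.8 to 170.2 CPM in the control libraries to 222.6 to 224.3 CPM (log2 fold change 0.46, SE 0.06, edgeR adjusted p = 1.67e-06). Ptgir, for the prostacyclin receptor, had 10.4, 9.39 and 10.5 CPM in control, 15.2, 10.4 and 15.4 CPM at 24 h and 7.42, 8.68 and 7.94 CPM at 48 h. It was called only for 48 h versus 24 h, where it fell by 0.77 on the log2 scale (SE 0.14, edgeR adjusted p = 0.00016). Ptgfrn, a membrane protein that associates with the prostaglandin F receptor, fell by 0.20 on the log2 scale at 48 h versus control (edgeR adjusted p = 0.00243). The receptor genes Ptgdr, Ptgdr2 and Tbxa2r had at most 0, 6 and 3 counts.

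Since EP4 signals through cAMP, 12 genes known as targets of cAMP and its transcription factor CREB were also read out, all of them tested. For 24 h versus control 5 were called higher and 0 lower, beside 3.25% and 2.90% of all genes, with a median log2 fold change of 0.34. For 48 h versus control 10 were called higher and 0 lower, beside 22.0% and 24.4%, with a median of 0.61. For 48 h versus 24 h 7 were called higher and 1 lower, beside 23.7% and 25.4%, with a median of 0.42. The list was assembled with earlier results of these data known, so its called counts and medians are a description. The genes are also induced by other signals, cytokines and stress among them, and cAMP was not measured. Sik1, a kinase that limits CREB activity, had 11.2, 9.88 and 12.5 CPM in control, 19.7, 16.3 and 18.1 CPM at 24 h and 24.4, 25.1 and 25.9 CPM at 48 h. Its log2 fold change was 0.69 at 24 h (SE 0.11, edgeR adjusted p = 0.00029) and 1.17 at 48 h (SE 0.10, edgeR adjusted p = 2.74e-08). The orphan nuclear receptor gene Nr4a2 rose by 0.90 at 24 h (SE 0.15, edgeR adjusted p = 0.00048) and 1.13 at 48 h (SE 0.14, edgeR adjusted p = 2.97e-06) on the log2 scale, and its relative Nr4a3, at 1.20 to 6.19 CPM, by 1.03 and 1.73 (edgeR adjusted p = 0.0229 and 1.26e-05). Nr4a1 was called at 48 h alone, at 0.46 (edgeR adjusted p = 0.0175).

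Crem, for a cAMP-responsive transcription factor, Fosb, Per1 and Dusp1 were called higher at 48 h and not at 24 h, with log2 fold changes at 48 h of 0.60, 1.15, 0.70 and 0.63. The cAMP phosphodiesterase gene Pde4b rose by 0.23 at 24 h (edgeR adjusted p = 0.0351) and 0.36 at 48 h (edgeR adjusted p = 9.52e-05) on the log2 scale, and Pde4d by 0.23 at 48 h (edgeR adjusted p = 0.0133). Areg, the growth factor amphiregulin, went another way. It had 6.65, 5.72 and 4.13 CPM in control, 8.33, 9.49 and 8.03 CPM at 24 h and 4.28, 4.13 and 3.95 CPM at 48 h, with log2 fold changes of 0.64 at 24 h (SE 0.16, edgeR adjusted p = 0.0238) and -0.43 at 48 h (SE 0.18, edgeR adjusted p = 0.0546). Between 24 h and 48 h it fell by 1.07 (SE 0.16, edgeR adjusted p = 2.99e-05), in the direction of Ptgs2 and opposite to the other called genes of the list.

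**Figure D4:**
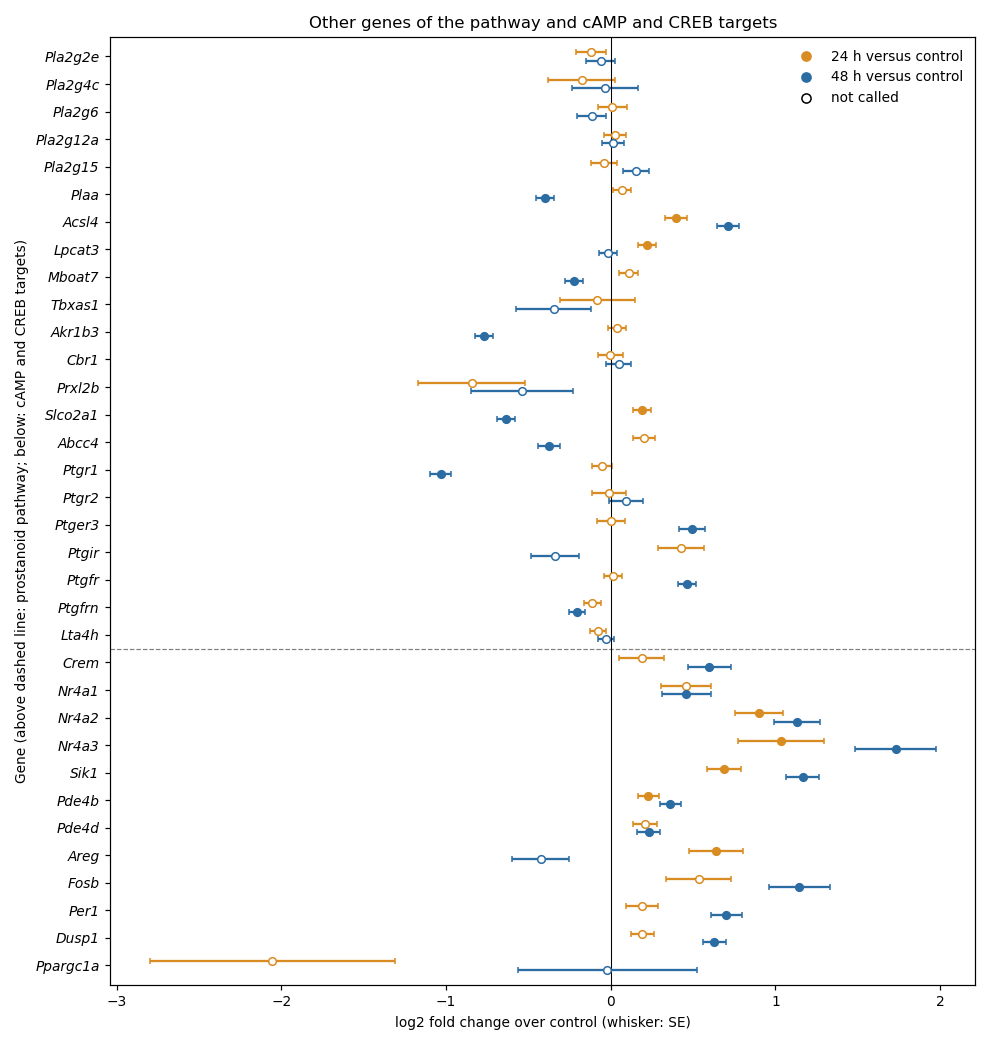
Log2 fold change over control (horizontal axis, whiskers show the SE) at 24 h and 48 h for the 22 tested genes of the other prostanoid pathway list (above the dashed line) and the 12 cAMP and CREB target genes (below it). Filled points are called at an edgeR adjusted p under 0.05. Ptgr1, Akr1b3 and Slco2a1 reach -1.03, -0.77 and -0.63 at 48 h, while Acsl4 and 10 of the cAMP and CREB target genes are called above 0 there.

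The genes most like Ptgs2 in their pattern over the 9 libraries were found among 10519 genes with a mean of at least 5 CPM. Likeness was the root mean square difference between log2 CPM values, each gene centred on its own mean. The closest was Kcnk10, a potassium channel gene, at 0.0974, followed by Ereg, for the growth factor epiregulin, at 0.140. Next were Ramp3, for a protein that modifies calcitonin-family receptors, at 0.156, Timp1, for an inhibitor of matrix metalloproteinases, at 0.200, and Smim36, for a small membrane protein, at 0.208. The mean level of Kcnk10 was 4.54 CPM in control, 8.53 CPM at 24 h and 2.60 CPM at 48 h, and that of Ereg was 56.6, 119.2 and 39.7 CPM. Timp1 had 214.9, 315.4 and 112.5 CPM, with a smaller rise at 24 h than Ptgs2. These genes were selected by this measure, so their values are a description. No other prostaglandin gene was among the 5.

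**Figure D5:**
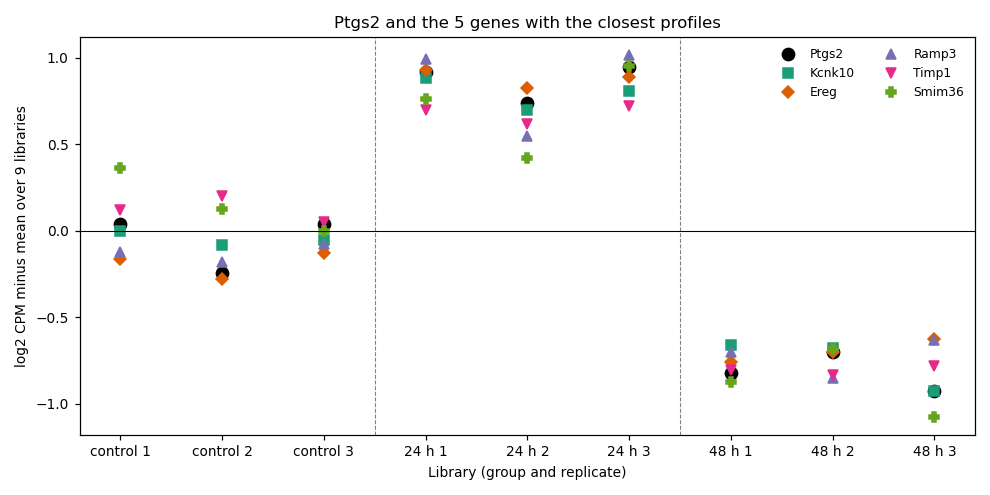
Log2 CPM minus the mean of each gene over the 9 libraries (vertical axis) for Ptgs2 and the 5 genes with the closest profiles, in each library (horizontal axis). All 6 genes are highest in the 24 h libraries and lowest in the 48 h libraries, and Smim36 and Timp1 lie above Ptgs2 in the control libraries 1 and 2.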

How the data were processed

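MLO-Y4 RNA was sequenced in 9 libraries, grouped by the sample labels. The authors deposited whole-number counts per gene that were not normalized. Per the labels, reads were trimmed, aligned to GRCm39 with HISAT2 and counted with featureCounts (2.06 in the submitters' processing notes, although the sources differ on the version). RSEM is named as well in the study's methods. Libraries were made with a directional kit. Whether counting used the strand, and how multiply matching reads were handled there, is not given in the sources used here, so counts of overlapping or near-identical genes are uncertain.

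The analysis used R 4.3.3 with edgeR 4.0.16, which calls limma 3.58.1. The filterByExpr function (minimum count 10) left 13812 of the 26232 genes with reads, and library sizes were scaled by TMM (trimmed mean of M values, factors 0.983 to 1.015). A single quasi-likelihood fit held the 9 libraries, with a term for group and 6 residual degrees of freedom. P-values were adjusted by Benjamini-Hochberg over all genes tested. Intervals are 95%. The filter, TMM scaling, DESeq2 1.42.0, pairwise fits, a replicate block and each library left out were tried as alternatives. On simulated counts for 48 h versus control, the procedure recovered 83.9% of 200 genes changed by 1 on the log2 scale, and 5.83% of its calls were false (5 sets of 13812 genes). In the data, 46.4% of genes were called in that comparison, and the median absolute log2 fold change was 0.25. The simulated rates therefore need not hold for the data. Replicates differed by more than sampling noise (chi-square per degree of freedom 2.32 to 8.83). Floors of 3 counts cover counting error only.

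The 10 genes and all lists, assembled by hand from general knowledge, were chosen with earlier results of these data known. Genes outside the 10 were named where called in at least 1 comparison with a mean of at least 1 CPM in a group. The 5 genes like Ptgs2 were found on log2 CPM with a pseudocount of 0.5 CPM. Promoters came from the RefSeq table. The exact match to GRCm39 gave their coordinates. One withheld item is not reported here.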

Additional observations from a re-analysis of the deposited data

Results flagged for a closer look

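The change over control differed between 48 h and 24 h for 6 of the 8 tested genes, by the direct edgeR test of 48 h versus 24 h, which is the difference of the 2 changes because both use the same control libraries. The difference, 48 h minus 24 h on the log2 scale, was -1.70 for Ptgs2 (edgeR adjusted p = 1.26e-11), which was above control at 24 h and below it at 48 h. It was -0.47 for Ptges (edgeR adjusted p = 3.86e-06), with changes over control of 0.58 and 0.10. It was -0.46 for Ptges3, -0.30 for Ptgs1, -0.32 for Ptges2 and -0.26 for Ptger4 (edgeR adjusted p = 2.95e-06, 0.000166, 0.00725 and 0.00984). Of all genes tested 49.1% were called in the same comparison.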

How the results depend on the processing

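The changes of the 8 genes in the 3 comparisons were recomputed under 17 alternatives, of which the Ptges3 pseudogene sum applied to Ptges3 alone and was chosen after the data were seen. Of 387 recomputed values, 353 kept their direction and their side of the threshold, 21 lost a call and 13 changed sign. All 13 sign changes concerned values that were not called. Without TMM scaling Pla2g4a gave -0.0104 at 24 h, 0.0060 at 48 h and 0.0164 for 48 h versus 24 h. With single libraries left out, the log2 fold change at 24 h ran from -0.026 to 0.032 for Pla2g4a, from -0.017 to 0.066 for Ptgs1, from -0.038 to 0.162 for Ptges2 and from -0.061 to 0.025 for Ptges3. For Pla2g4a it ran from -0.036 to 0.018 at 48 h versus control and from -0.038 to 0.024 for 48 h versus 24 h. The number of genes called lower at 48 h versus control was 5, ran from 3 to 4 with single libraries left out (3 without control replicate 1, 48 h replicate 1 or 48 h replicate 2) and was 3 at an adjusted p under 0.01. The lost calls were those of Ptges2 and Ptger4 at 48 h versus control and of Ptger4 for 48 h versus 24 h without 24 h replicate 2. For Ptger4 at 48 h the edgeR adjusted p was 0.0556 with DESeq2 size factors, 0.0662 with library sizes alone, 0.115 without the filter and 0.0683 with only the compared groups, and the DESeq2 adjusted p was 0.123. The cause was not tested. The calls of Ptgs2, Ptges, Ptges3, Ptgs1 and Ptger1 were kept under every alternative. That of Ptger1 at 48 h versus control came close to the threshold without 48 h replicate 1 (log2 fold change 0.75, edgeR adjusted p = 0.0480).

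Replicate numbers are shared between groups. Deviations of same-numbered libraries correlated at -0.067 to 0.103, and those of other numbers at -0.114 to 0.130. With 3 libraries per group, these correlations cannot show whether same-numbered libraries were paired. With the replicate block, 4 of the genes were called lower at 48 h, Ptger4 being lost at -0.20 (edgeR adjusted p = 0.0570), and no other call changed. Over all genes, 849 were called at 24 h versus control in the fit reported and 958 with the replicate block. That count was 464 at an adjusted p under 0.01, 1475 without control replicate 3, 524 without 24 h replicate 1 and 518 without 24 h replicate 3. Depth limited Ptgis, Hpgd and, at 15 to 59 counts, Ptger1.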
